A study of Homo sapiens with 8 samples.

Results

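The CCN family comprises 6 genes for secreted matricellular proteins, and the peaks described here are those whose centre lay within 100 kb of one of their transcription start sites in 5 lists of chromatin-bound regions from HuCCT1, a human bile duct cancer (cholangiocarcinoma) cell line. That rule took 61 of 51828 peaks: 35 of 38186 TEAD1 peaks, 20 of 12188 TEAD4 peaks, 5 of 847 HA-YAP5SA peaks, 1 of 454 YAP peaks and none of 153 TAZ peaks. Chromatin immunoprecipitation and sequencing was done on HuCCT1 cells with antibodies against YAP, TAZ, TEAD1, TEAD4 and the HA tag, and HA-YAP5SA is a tagged YAP in which serines targeted by the LATS kinases are changed to alanine. The labels do not say how the tagged protein was expressed or whether the cells used for the other antibodies carried it. Each list came from 1 library, so nothing below could be checked against a replicate, and library depths are unknown. The GFP, IgG and input libraries, which the design names as background, were not analysed here.

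YAP and TAZ are the transcriptional coactivators restrained by the Hippo kinase cascade. They do not bind DNA themselves and reach it chiefly through TEAD1 to TEAD4, which recognise a short core motif. CTGF (CCN2, connective tissue growth factor) and CYR61 (CCN1), which bind integrins and matrix proteoglycans, are the textbook readouts of YAP activity. NOV (CCN3), WISP1 (CCN4), WISP2 (CCN5) and WISP3 (CCN6) are less often used in this way. CCN proteins share a modular build, and WISP2 is the member that lacks the C-terminal cystine-knot module.

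The hg19 start sites were chr1:86046444 for CYR61, chr6:132272518 for CTGF, chr8:120428552 for NOV, chr8:134203282 for WISP1, chr20:43343885 for WISP2 and chr6:112375278 for WISP3. CTGF is transcribed towards lower coordinates and the others towards higher ones. The 6 loci differed widely. CYR61 carried 16 TEAD1 peaks, 11 TEAD4 peaks, 4 HA-YAP5SA peaks and the family's only YAP peak. WISP2 had 8 TEAD1, 6 TEAD4 and 1 HA-YAP5SA peaks. CTGF had 5 TEAD1 and 2 TEAD4 peaks, WISP3 had 2 TEAD1 peaks and 1 TEAD4 peak, and WISP1 had 4 TEAD1 peaks alone. NOV had no peak of any list. A TEAD peak covered the start site at CTGF and CYR61 and at no other member, and no HA-YAP5SA or YAP peak covered any of the 6 start sites.

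**Figure D1:**
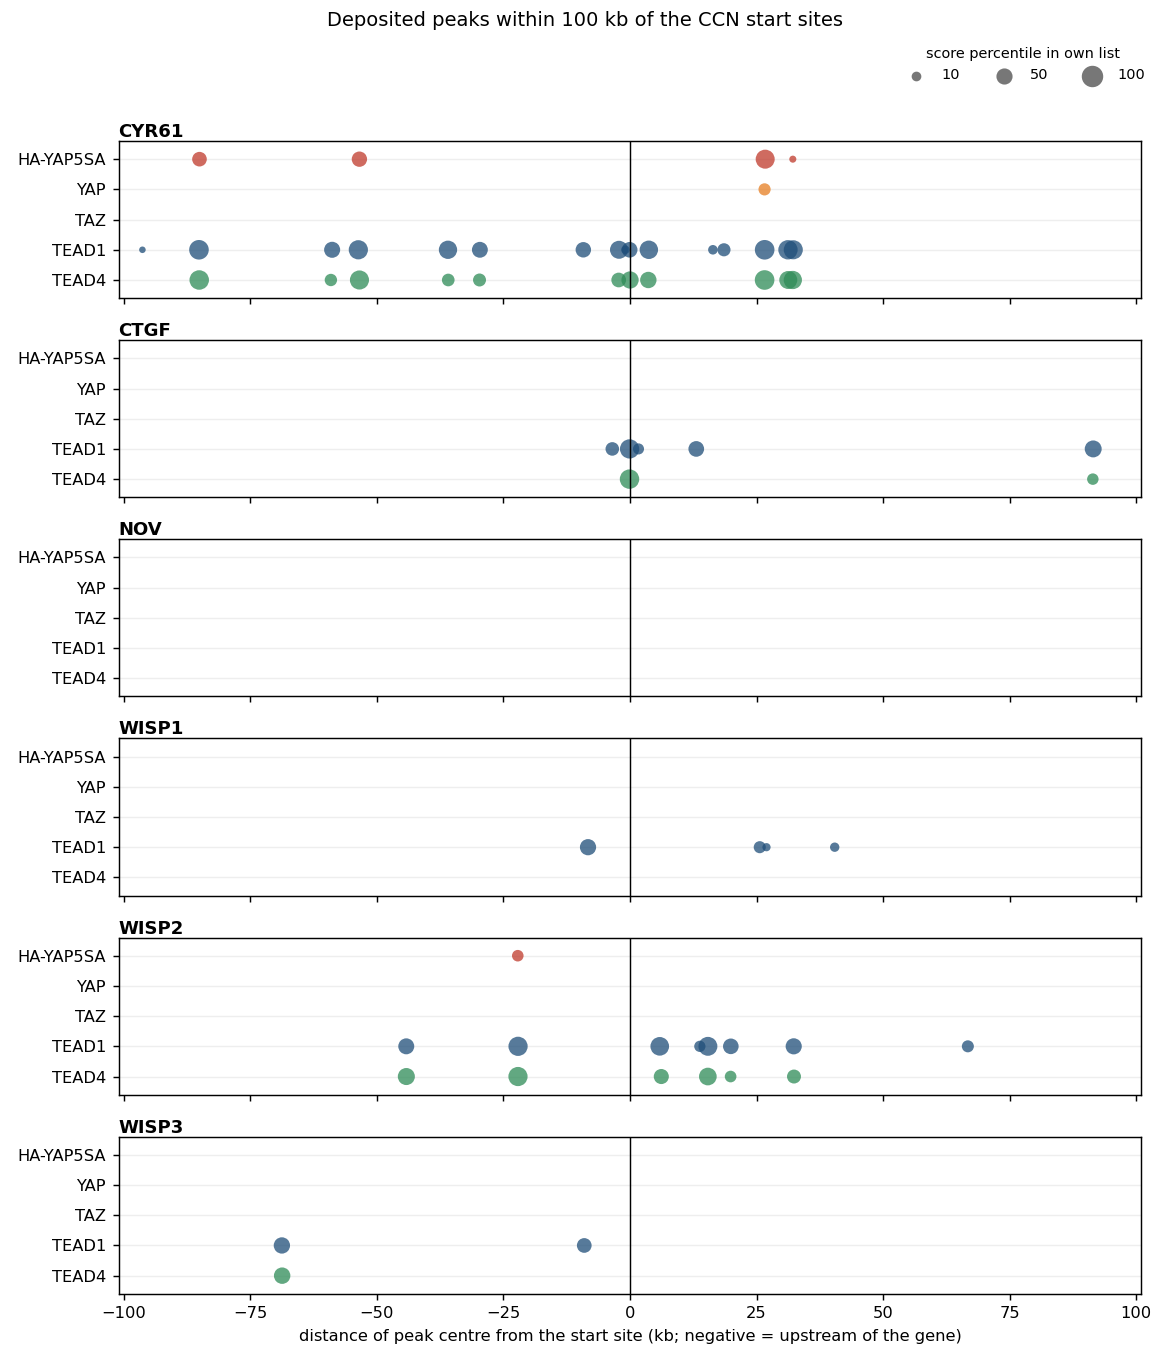
Position of every peak within 100 kb of the 6 CCN start sites, as distance of the peak centre in kb along the direction of transcription, with 1 row per list. Larger points have a higher score percentile in their own list. Peaks of several lists line up at CYR61 from 85.1 kb upstream to 32.3 kb downstream, a TEAD1 and a TEAD4 peak sit on the CTGF start, and the NOV panel is empty.

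At CTGF the binding was concentrated on the promoter. The TEAD1 peak chr6:132272228-132272954 (hg19) covered the start site, with its centre 73 bp upstream and a score of 1016.92. The score is the authors' own value for a peak, its scale is not stated, and it is used here only to rank peaks within a list, where this one was 1388th of 38186. The TEAD4 peak chr6:132272378-132272835 lay on the same spot, with its centre 88.5 bp upstream and a score of 862.09, the 243rd of 12188. The other 4 TEAD1 peaks of CTGF scored between 116.98 and 310.41. They lay 3.49 kb upstream, and 1.69, 13.1 and 91.5 kb downstream of the start, and TEAD4 recurred only at the most distant of them, with a score of 116.61. ENPP1 is the neighbour of CTGF on that side in RefSeq's gene order, so the distant site need not belong to CTGF.

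The promoters of CTGF and WISP3 are printed because no other member had an entry in the promoter table used. Those of CYR61, NOV, WISP1 and WISP2 were therefore not searched for the TEAD motif. The CTGF promoter had a high-ranking TEAD1 and TEAD4 peak, and that of WISP3 held the same motif with no peak upon it. RefSeq's promoter table (build GRCh38.p14, 250 bases before to 50 after the start) held 2 of the 6 members, CTGF at chr6:131951323-131951622 on the minus strand and WISP3 at chr6:112053854-112054153 on the plus strand, and the peaks, which are on hg19, were tied to it by gene and not by coordinates. Sequences run 5′ to 3′ along the gene, and capitals mark the TEAD core GGAATG or its reverse complement CATTCC.
CTGF: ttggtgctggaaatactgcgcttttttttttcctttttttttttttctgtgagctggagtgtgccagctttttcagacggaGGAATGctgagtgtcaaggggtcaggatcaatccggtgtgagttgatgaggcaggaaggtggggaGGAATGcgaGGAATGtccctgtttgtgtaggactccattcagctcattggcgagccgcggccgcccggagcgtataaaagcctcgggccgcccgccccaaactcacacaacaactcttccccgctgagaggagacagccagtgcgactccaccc
WISP3: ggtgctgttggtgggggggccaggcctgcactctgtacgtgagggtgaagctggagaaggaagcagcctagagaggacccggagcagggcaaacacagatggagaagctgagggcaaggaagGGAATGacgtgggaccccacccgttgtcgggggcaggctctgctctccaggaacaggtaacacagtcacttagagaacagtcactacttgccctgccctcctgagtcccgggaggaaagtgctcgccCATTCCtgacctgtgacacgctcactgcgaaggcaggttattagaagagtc

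The CTGF promoter held the core 3 times in the direction of the gene, beginning 169, 104 and 95 bases before the start. The WISP3 promoter held it 2 times, beginning 128 bases before the start and, on the opposite strand, 1 base before it. Searched on both strands, at least 1 match occurred in 14% of 27305 promoters (the first listed of each gene), at least 2 in 1.37% and at least 3 in 40 promoters (0.146%). The AP-1 motif TGANTCA, which often accompanies TEAD cores in enhancers and shares no match with them here, was in neither sequence and in 7.76% of promoters. A match describes letters in the window and is not a measured site. The nearest TEAD1 peak to the WISP3 start was 9.03 kb upstream (chr6:112365971-112366529, score 189.65, 17886th of the list), with no TEAD4 peak on it.

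CYR61 was bound in a broader pattern, and its highest peaks lay away from the promoter. The TEAD1 peak on its start (chr1:86046120-86046651, centre 58.5 bp upstream) scored 225.87 and ranked 14954th, against 1388th for the corresponding CTGF peak. The TEAD4 peak on the start (chr1:86046173-86046749, centre 17 bp downstream) scored 275.7 and ranked 2964th, against 243rd at CTGF. Within 5 kb of the CYR61 start there were also TEAD1 peaks 2.16 kb upstream (score 450.69), 0.901 kb upstream (score 94.75) and 3.73 kb downstream (score 553.77). The first and the last of these had TEAD4, with scores of 170.4 and 229.11.

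The strongest site of the family lay 26.6 kb downstream of the CYR61 start. Its TEAD1 peak (chr1:86072459-86073634) scored 3100, a score that 5 TEAD1 peaks share and that is exceeded by 3. Its TEAD4 peak (chr1:86072584-86073484) scored 2383.56, seventh of 12188 and 12.5 bp from the TEAD1 centre. The HA-YAP5SA peak (chr1:86072736-86073568) scored 315.75, 55th of 847. The peak of the YAP antibody (chr1:86072885-86073172) scored 111, which was 300th of 454 in the whole YAP list, 53rd among the 92 YAP peaks that overlap TEAD1 and 22nd among the 52 that overlap TEAD1, TEAD4 and HA-YAP5SA. This was the only CCN site with peaks of 4 lists.

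HA-YAP5SA met CYR61 at 3 further sites, all with both TEADs. The site 85.1 kb upstream had a TEAD1 peak (chr1:85960849-85961788) with a score of 2016.5, ranked 122nd, a TEAD4 score of 996.56, ranked 157th, and an HA-YAP5SA score of 117.66, ranked 404th. The site 53.6 kb upstream (TEAD1 peak chr1:85992120-85993471) had scores of 946.47 for TEAD1, 590.76 for TEAD4 and 125.99 for HA-YAP5SA. The order of these upstream sites by score was therefore the same for both TEADs and the opposite for HA-YAP5SA. Divided by peak width, the HA-YAP5SA scores took the order of the TEADs, with 0.345 at the site 85.1 kb upstream and 0.316 at the other. The last site, 32.3 kb downstream (chr1:86078398-86079003), had 838.23 for TEAD1, 374.35 for TEAD4 and 82.37 for HA-YAP5SA, close to the HA-YAP5SA list's lowest score of 80.08. A neighbouring TEAD1 peak 31.2 kb downstream scored 1121.6, higher than the last site, and carried TEAD4 (score 343.54) but no HA-YAP5SA peak.

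The remaining CYR61 peaks had no HA-YAP5SA or YAP. TEAD1 peaks 58.8, 35.9 and 29.6 kb upstream scored 248.06, 517.11 and 238.94 and carried TEAD4 with scores of 127.56, 131.44 and 136.14. TEAD1 peaks 9.21 and 96.3 kb upstream and 16.4 and 18.6 kb downstream scored from 85.2 to 218.47 and had no TEAD4. No peak of any list lay between 32.3 and 100 kb downstream. In RefSeq's gene order the neighbours of CYR61 are DDAH1 and ZNHIT6, so a peak in the window need not belong to CYR61.

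WISP2 resembled CYR61 on a smaller scale, without a peak on the start. Its highest TEAD1 peak lay 22.1 kb upstream (chr20:43321365-43322199, score 951.07, 1628th), with a TEAD4 peak 14 bp away by centre (score 643.09, 542nd of 12188). The HA-YAP5SA peak there (chr20:43321658-43321798) was 141 bp wide and scored 95.73, 593rd of 847. TEAD scores at this site were close to those 53.6 kb upstream of CYR61, where HA-YAP5SA ranked 354th. The peak nearest the WISP2 start was 5.88 kb downstream (TEAD1 score 615.87, TEAD4 score 180.62). Another downstream site, 15.4 kb from the start, scored 733.57 for TEAD1 and 311.51 for TEAD4 and had no HA-YAP5SA. The other 5 TEAD1 peaks scored from 119.36 to 253.5, and 3 of them carried TEAD4. ADA and KCNK15 adjoin WISP2 in RefSeq's gene order.

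WISP3, WISP1 and NOV had few or no peaks. WISP3 had its higher TEAD1 peak 68.7 kb upstream (chr6:112306269-112306789, score 264.12), with TEAD4 (score 230.64, 3888th of 12188). WISP1 had a TEAD1 peak 8.28 kb upstream (chr8:134194678-134195317, score 258.35, 12926th) and 3 more 25.6 to 40.4 kb downstream, with scores from 93.43 to 129.95. None of the WISP1 peaks carried TEAD4, and the nearest TEAD4 peak was 129.9 kb downstream of the start. NDRG1 is the neighbour of WISP1 on that side.

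At NOV the nearest TEAD1 peak was 154.2 kb upstream with a score of 121.47, below the TEAD1 list's median of 177.35. The nearest TEAD4 peak was 236.7 kb upstream and the nearest HA-YAP5SA peak 649.2 kb upstream. In every list the peak nearest to NOV lay outside the rule's window.

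These counts were read against fixed 200 kb tiles of chromosomes 1 to 22 and X, each as long as the window around a start site. Tiles are not centred on genes, and gene-centred counts for other genes were not made here, so a tile is a measure of the list's density and not of what a gene has. Of 14740 tiles, 69.5% held at least 1 TEAD1 peak, 52.3% at least 2, 28.3% at least 4, 20.6% at least 5, 7.23% at least 8 and 0.36% at least 16. The 16 TEAD1 peaks of CYR61 were thus reached by 53 tiles and the 8 of WISP2 by 1065. The counts at CTGF, WISP1 and WISP3 were reached by 20.6 to 52.3% of tiles, and a count of 0, as at NOV, occurred in 30.5%. Tiles over centromeres and assembly gaps were not removed, which raises the share with 0 and lowers the shares of tiles with peaks.

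**Figure D2:**
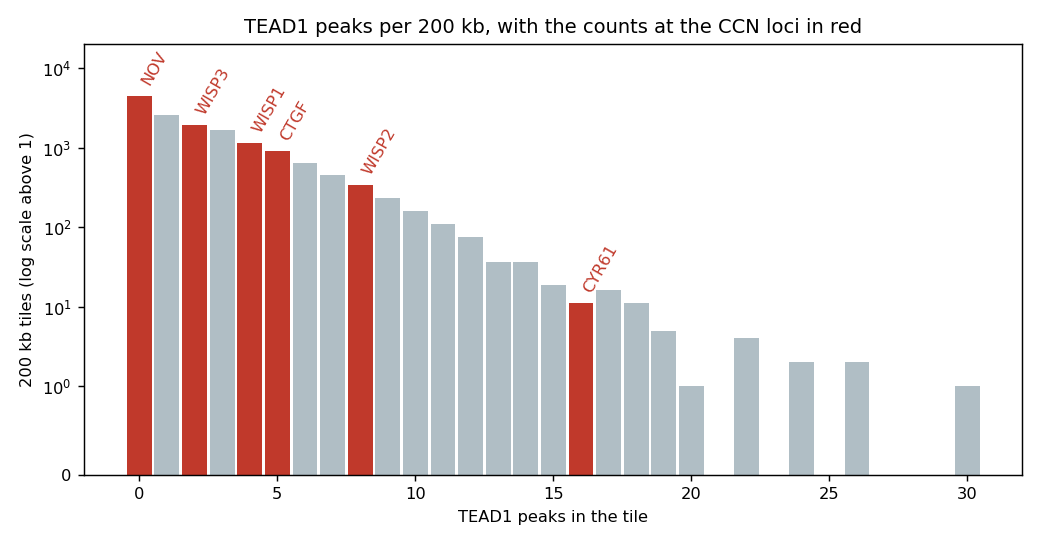
Number of 200 kb tiles (vertical axis, log scale above 1) by the number of TEAD1 peaks in the tile (horizontal axis). Red bars mark the counts found around the named CCN start sites, from 0 at NOV to 16 at CYR61, and the highest tile held 30.

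For TEAD4, 40.1% of tiles held at least 1 peak, the share against which WISP3 with 1 is read. At least 2 peaks, the count of CTGF, occurred in 20.2% of tiles, at least 6, the count of WISP2, in 1.54% and at least 11, the count of CYR61, in 0.0746%. HA-YAP5SA was present in 5.07% of tiles, and 4 peaks, as around CYR61, were in 1 tile (0.00678%). Fixed tiles can cut a group of peaks apart, so the counts of CYR61 were also set against any 200 kb stretch. For TEAD1, 2685 peaks (7.03% of the list) on 22 chromosomes lay in some such stretch with at least 16. For TEAD4, 400 peaks (3.28%) on 14 chromosomes lay in one with at least 11, and for HA-YAP5SA, 17 peaks (2.01%) on 3 chromosomes lay in one with at least 4. YAP was present in 0.909% of tiles and TAZ in 0.326%, so no TAZ peak at 6 loci is also what most tiles show. In the whole TEAD1 list, 0 of 38186 peaks overlapped a TAZ peak. The lack of TAZ on CCN TEAD1 peaks was therefore not particular to these loci.

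TEAD4 partnered a majority of the family's TEAD1 peaks. Of the 35 CCN TEAD1 peaks, 20 overlapped TEAD4 (57.1%, exact 95% binomial interval 39.4 to 73.7%, counting error only), against 30.6% of the whole TEAD1 list. HA-YAP5SA was at 5 of 35 (14.3%, 4.81 to 30.3%), against 2.06% of the list, and YAP at 1 of 35, against 0.21%. The CCN TEAD1 peaks score higher than their list. The up to 200 TEAD1 peaks of neighbouring rank around each of them carried TEAD4 in 43.9% and HA-YAP5SA in 6.81% of cases on average. Both values lie within the intervals of the CCN shares. Those intervals treat peaks of 1 library, many of them from 1 locus, as independent, so no conclusion is drawn from this. CYR61 supplied 16 of the 35 TEAD1 peaks, 11 of the 20 sites with TEAD4 and 4 of the 5 with HA-YAP5SA. Without CYR61, 9 of 19 TEAD1 peaks carried TEAD4 (47.4%) and 1 carried HA-YAP5SA (5.26%). The peaks of neighbouring rank around those 19 carried TEAD4 in 35.2% and HA-YAP5SA in 2.13% of cases on average. Every one of the 20 TEAD4 peaks and 5 HA-YAP5SA peaks at the loci lay on a TEAD1 peak. Their centres were a median of 57.8 bp (range 12.5 to 306) and 101.5 bp (54 to 210.5) from the TEAD1 centre. Such overlap is not particular to these loci. Over the whole lists, 11668 TEAD1 peaks overlapped a TEAD4 peak (list of 12188) and 787 overlapped an HA-YAP5SA peak (list of 847).

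CCN sites with a partner had the higher TEAD1 scores, a trait of the whole TEAD1 list and not of the family. Among the 200 TEAD1 peaks of neighbouring rank, 5% carried TEAD4 around the CTGF peak scoring 116.98. Around the CTGF promoter peak, scoring 1016.92, 98.5% did. For HA-YAP5SA these shares were 0 and 12.5%. Where TEAD4 was present the median TEAD1 score was 535.44 (225.3 to 3100, 20 peaks), and where it was absent 129.01 (85.2 to 258.35, 15 peaks), so the ranges overlapped only between 225.3 and 258.35. Where HA-YAP5SA was present the median TEAD1 score was 951.07 (838.23 to 3100, 5 peaks), and where it was absent 227.04 (85.2 to 1121.6, 30 peaks). The peaks above 838.23 that lacked HA-YAP5SA were the CTGF promoter peak and the CYR61 peak 31.2 kb downstream. Over the 35 TEAD1 peaks, 24 exceeded the median score of their list and 6 were in its top 5%. Of the 20 TEAD4 peaks, 14 exceeded their list's median, and 4 were in its top 5%.

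**Figure D3:**
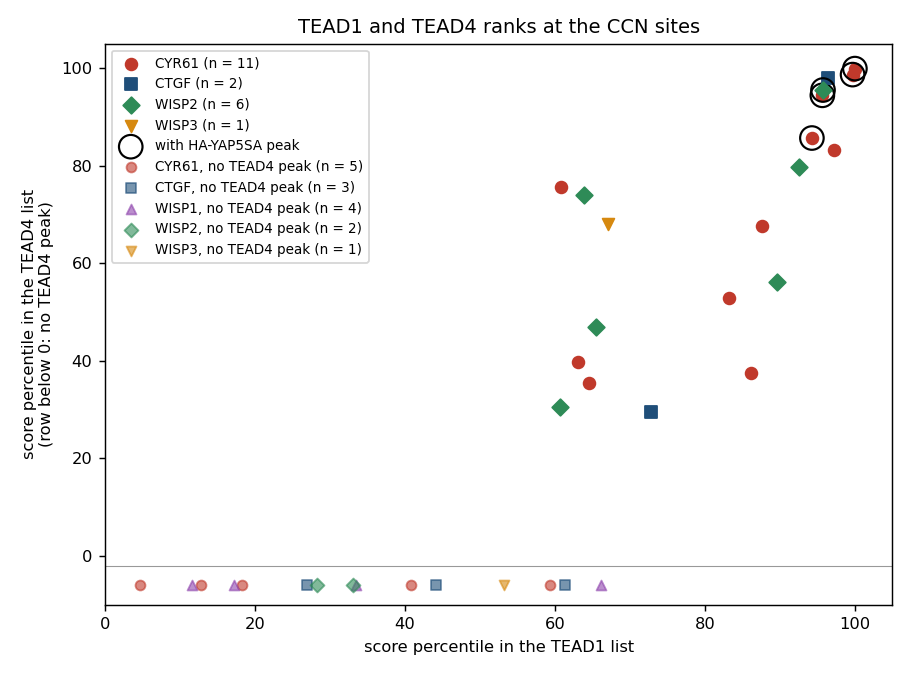
Score percentile in the TEAD1 list (horizontal axis) and in the TEAD4 list (vertical axis) for the 20 CCN sites with both, coloured by gene, with the 15 sites that lack a TEAD4 peak in the row below 0. Circles mark the 5 sites with an HA-YAP5SA peak, all at high percentiles of both lists. The CTGF promoter is the uncircled square beside them.

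To place the presence or absence of HA-YAP5SA at each site, it was set beside the 200 TEAD1 peaks of neighbouring rank, 100 above and 100 below. Around the CTGF promoter peak (scores 987.93 to 1046.54) 25 of 200 TEAD1 peaks overlapped HA-YAP5SA (12.5%) and 197 overlapped TEAD4. The absence of HA-YAP5SA at CTGF is therefore what most TEAD1 peaks of that TEAD1 score show. TEAD4 score was not matched in this comparison. Around the TEAD1 peak on the CYR61 start 1% of 200 carried HA-YAP5SA, and around the one 85.1 kb upstream of CYR61 68.5% did. For the HA-YAP5SA sites 53.6 kb upstream and 32.3 kb downstream of CYR61 and 22.1 kb upstream of WISP2 the shares were 14, 10 and 14.5%. For the TEAD1 peak 26.6 kb downstream of CYR61, at the top of the list, only 103 such neighbours exist, of which 79 (76.7%) carried HA-YAP5SA and 20 (19.4%) carried YAP.

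**Figure D4:**
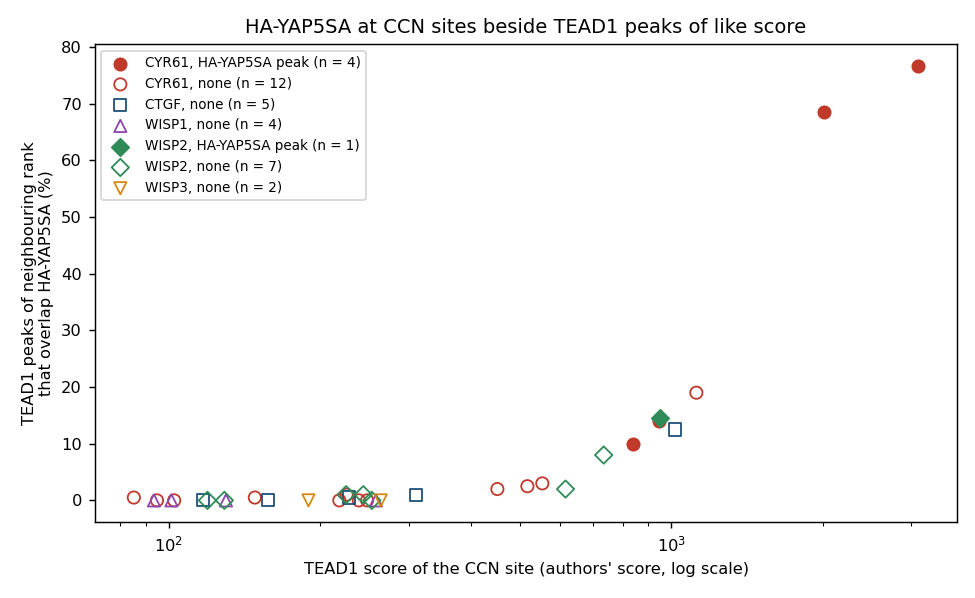
For each of the 35 CCN TEAD1 peaks, its TEAD1 score (horizontal axis, log scale) and the percentage of TEAD1 peaks of neighbouring rank that overlap HA-YAP5SA (vertical axis). Filled symbols are the 5 CCN sites with an HA-YAP5SA peak, which sit where that percentage is between 10 and 76.7%, and open symbols are the 30 without one.

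CTGF and WISP3 share a long stretch of chromosome 6 in which no HA-YAP5SA peak was listed, a pattern noticed after the values were seen. The HA-YAP5SA peak nearest to CTGF was 7757.6 kb upstream and that nearest to WISP3 26149.2 kb upstream, and no HA-YAP5SA peak lay between chr6:86226088 and chr6:140030026 (hg19). At 53.8 Mb this was the longest distance between neighbouring HA-YAP5SA peaks on any chromosome. The next were 38.9 Mb and 32.0 Mb, both on chromosome X. It held 459 TEAD1 peaks and 94 TEAD4 peaks. Its TEAD1 density was 8.53 peaks per Mb, against 12.9 per Mb over all tiles, and 407 of the 486 stretches over 1 Mb were denser.

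TEAD1 peaks within this stretch were somewhat lower in rank than elsewhere. Their median score was 168.12, against 177.54 for all other TEAD1 peaks, and 20.3% carried TEAD4, against 30.7%. The top 10% of the TEAD1 list (scores from 628.9) held 32 peaks of the stretch, or 6.97% of its TEAD1 peaks, against 10.0% of the others. None of those 32 carried HA-YAP5SA, which the choice of the stretch fixes. Of the top 10% TEAD1 peaks in the rest of chromosome 6, 19 of 141 (13.5%, exact 95% interval 8.31 to 20.2%) did, and so did 660 of 3787 (17.4%) of those outside the stretch on all chromosomes. By TEAD1 score the CTGF promoter was the sixth peak of the stretch. The 1 YAP peak in the stretch (score 82.65) lay 454.7 kb downstream of the WISP3 start. DNA copy number and library depth along the chromosome were not measured here, and their part in the pattern was not tested.

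**Figure D5:**
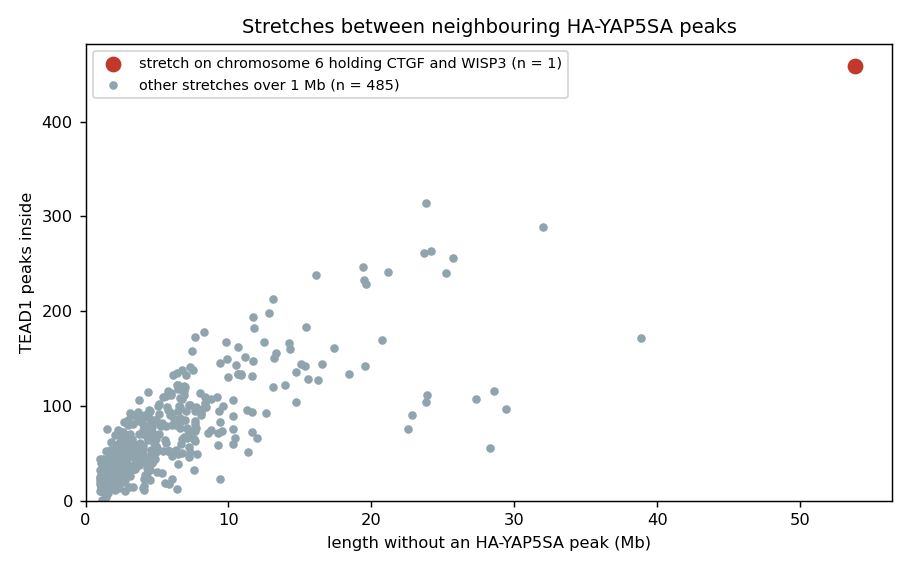
Each point is a stretch of over 1 Mb between neighbouring HA-YAP5SA peaks that holds at least 1 TEAD1 peak, by its length in Mb (horizontal axis) and the number of TEAD1 peaks inside (vertical axis). The red point is the stretch of chromosome 6 with CTGF and WISP3, at 53.8 Mb and 459 TEAD1 peaks, and the 485 grey points are the others.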

How the data were processed

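Chromatin of HuCCT1 cells was cross-linked, sonicated and precipitated, and libraries were prepared with a NEBNext kit, per the labels' protocols. The submitters' processing notes list Bowtie2 and hg19. Peaks are named after MACS, a peak caller, in the deposited lists. Not given in the sources used here are its version, threshold and controls. Each deposited list gives positions and a score per peak, the authors' own value on an unstated scale, so lists were never compared by score and their lengths do not measure binding. Starts in lists without a header were raised by 1, and starts are uncertain by 1 bp.

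A peak belonged to a locus when its centre lay within 100 kb of the hg19 start site. Peaks overlapped at 1 bp or more. Ranks count the highest score as first. Strands of CTGF and WISP3 came from RefSeq's promoter table and those of the other members from general knowledge. There was 1 library per group, so no test was made. The counting steps were tested on simulated data. The members, windows and peaks named (all HA-YAP5SA, YAP and TAZ peaks, and the nearest, highest and start-proximal TEAD peaks) were chosen with earlier results of these data known, and other peaks and the chromosome 6 stretch were added after values were seen. Alternatives were other windows, a score minimum, peak edges, shifted tiles, stricter overlaps and other rankings. A planned count at other YAP target genes needed hg19 gene positions and was not run. Software was matplotlib 3.10.9, SciPy 1.17.1, pandas 2.3.3 and NumPy 2.4.6 under Python 3.11.15.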

Additional observations from a re-analysis of the deposited data

How the results depend on the processing

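No paired analysis was possible because each list came from 1 library. With 50 kb on each side of the start sites, 3 HA-YAP5SA peaks were left in all, 2 of them at CYR61, CTGF had 1 TEAD4 peak, and WISP3 had 1 TEAD1 and 0 TEAD4 peaks. With 200 kb, the loci held 60 TEAD1 and 31 TEAD4 peaks, and NOV had 1 TEAD1 peak, WISP1 13, WISP2 14 and WISP3 6. WISP1 then also had 4 TEAD4 peaks and 1 HA-YAP5SA peak, and WISP2 had 10 TEAD4 peaks. Peaks at or above their list's median score left 3 HA-YAP5SA peaks, with 0 at WISP2, 0 YAP peaks, 1 TEAD4 peak at CTGF, 3 TEAD1 peaks at CTGF and 1 at WISP1, and 0% of CCN TEAD1 peaks with YAP. Measured to the nearest edge, the TEAD1 distance at CTGF and CYR61 was 0 kb, since the peaks cover the start. Ranked by score divided by width, the highest-scoring TEAD1 peak had a percentile of 96.9 at CTGF, 99.8 at CYR61, 61.2 at WISP1, 94.3 at WISP2 and 72.3 at WISP3. Ranked by width it was 83.6, 98.6, 70.9, 91.4 and 41.8 in the same order of loci. For the list totals, the TEAD1 counts per locus and the nearest TEAD1 distances, 50 values were recomputed, and 36 stayed within 1.5 times the value given. For the counts per locus of the other lists and the tile shares, 91 stayed so and 9 moved, counts of 0 that stayed 0 among the former. Of 15 shares of TEAD1 peaks with a partner, 14 stayed within the binomial interval. The 10 percentiles above all fell outside the narrow binomial interval of the percentile by score. CYR61 had the most TEAD1 peaks with every window and score minimum tried. Without replicates or library depths, a missing peak does not show that a site is unbound.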
